A study of Caenorhabditis elegans with 15 samples.

Results

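The mitochondrial ribosomal proteins were examined as 71 genes whose names begin with mrpl- or mrps- in the deposited transcript map. They made up 71 of 46904 genes and 88 of 61451 transcripts. By name, 42 belonged to the large subunit (mrpl-) and 29 to the small subunit (mrps-). Membership was set by name and used no measured value.

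Mitochondria keep a ribosome of their own, which translates the few proteins encoded by mitochondrial DNA. These are core subunits of respiratory complexes I, III and IV and of the ATP synthase, so each of those complexes is built from products of both genomes. All proteins of the mitochondrial ribosome are encoded in the nucleus, made in the cytosol and imported, while its RNAs are transcribed from mitochondrial DNA. In Caenorhabditis elegans, knockdown of mitochondrial ribosomal protein genes such as mrps-5 during development is known to lengthen life and to induce the mitochondrial unfolded protein response.

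RNA was measured in pools of 20 dissected intestines from worms raised on OP50 bacteria, at an age of 5 days in all libraries, with 5 libraries in each of 3 groups. The first group was wild type. The second was gas-1(fc21), which carries a mutation in a core subunit of complex I. The third, called OE here, carries the same gas-1(fc21) allele and also overexpresses cest-2.2 (O/E in the labels), a gene of the carboxylesterase family. The promoter behind the overexpression, its copy number and the number of lines were not given in the sources used here. Libraries were made by Smart-seq2 from total RNA and kept no strand. Nothing in the labels says that the libraries of a group came from separate cultures, so p-values measure the spread between these samples, which may be technical. Where 3 values stand together below, they belong to wild type, gas-1 and OE, in that order. Errors of levels are SDs over the 5 libraries of a group.

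Total estimated counts ranged over 12182697 to 40045140, 12607565 to 17688689 and 12785262 to 45896053 in the 3 groups. The fc21 allele is a missense change, so gas-1 transcript does not check the labels. It averaged 67.8, 124 and 121 CPM (counts scaled to a common library total, with the TMM scaling of edgeR). The cest-2.2 transcript ranged over 21.6 to 64.3, 34.9 to 97.5 and 60.9 to 179 CPM, and it was not called between OE and gas-1 (adjusted p = 0.109, edgeR quasi-likelihood test with Benjamini-Hochberg adjustment). All 19 intestine markers that matched the map, among them elt-2, ges-1 and the vitellogenins, were detected and tested. Germline markers were present as well, with a summed level over 24 genes of 4254 to 4978, 2657 to 4218 and 3507 to 5680 CPM. Body wall muscle markers (12 genes) summed to 250.1 to 2758, 266 to 460 and 178 to 557 CPM. In bulk samples such as these, fewer cells of a type and less RNA per cell cannot be told apart.

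Of the 71 genes, 68 passed the filter on low counts and were tested, 40 of the large subunit and 28 of the small. The other 3 were mrpl-45, mrpl-46 and mrps-31. Their estimated counts reached at most 15, 37 and 25 in any library, and their mean levels over the 15 libraries were 0.123, 0.904 and 0.344 TPM (transcript abundance, which is scaled by transcript length and so can be compared between genes). In mammals, the protein named MRPL45 lines the end of the tunnel through which the new chain leaves and helps to hold the ribosome at the inner membrane. At these counts no change in the 3 genes was detectable, and they are left out of every count below.

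The filter on low counts had removed the members of lowest level, which narrows the range of the 68 tested genes. Their median level was 19.9 TPM over the 15 libraries, against 15.6 TPM for all 10585 genes tested. A total of 61 of the 68 lay within 2-fold of the members' median, and the highest level was 7.05 times the lowest. The same values were not computed for all genes, so this spread is not shown to be unusual. The subunits had like levels, with a median of 20.3 TPM for the large and 19.8 TPM for the small subunit.

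In the large subunit the highest levels were those of mrpl-14, mrpl-2 and mrpl-28. mrpl-14 stood at 41.3 ± 11.6, 48.4 ± 10.9 and 38.1 ± 7.11 TPM (SD, n = 5 libraries each). mrpl-2, whose bacterial counterpart lies beside the site of peptide bond formation, stood at 46.3 ± 14.9, 31.4 ± 5.49 and 34.2 ± 15.6 TPM, and mrpl-28 at 44.1 ± 11.7, 30.7 ± 14.1 and 32.6 ± 10.5 TPM. The ranges of 1 SD of these 3 genes overlapped in wild type and in OE. In gas-1 that of mrpl-14 lay above that of mrpl-2, and their order was not tested. The lowest tested genes of the large subunit were mrpl-55 at 6.63 TPM and mrpl-36 at 6.81 TPM over all libraries. mrpl-36, with a coding length of 231 bases the shortest of the 71 genes, had 0.349 to 2.07 CPM in single libraries.

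In the small subunit the highest levels were those of mrps-30, mrps-5 and mrps-18C. The protein named MRPS30 in mammals is found in the large subunit despite its name, and the worm gene is counted here by its name. mrps-30 stood at 54.2 ± 9.47, 46.7 ± 11.2 and 39.3 ± 10.8 TPM, and mrps-5 at 51.2 ± 11.6, 41.4 ± 4.51 and 36.7 ± 7.35 TPM. mrps-18C stood at 47.1 ± 11.2, 28.7 ± 9.06 and 38.2 ± 10.7 TPM. It is a different gene from mrps-18.C, which lies on chromosome II and stood at 17.1 ± 6.75, 16.1 ± 4.98 and 13.8 ± 6.66 TPM. The lowest tested genes were mrps-21 at 8.11 TPM and mrps-28 at 10.6 TPM over all libraries.

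**Figure D1:**
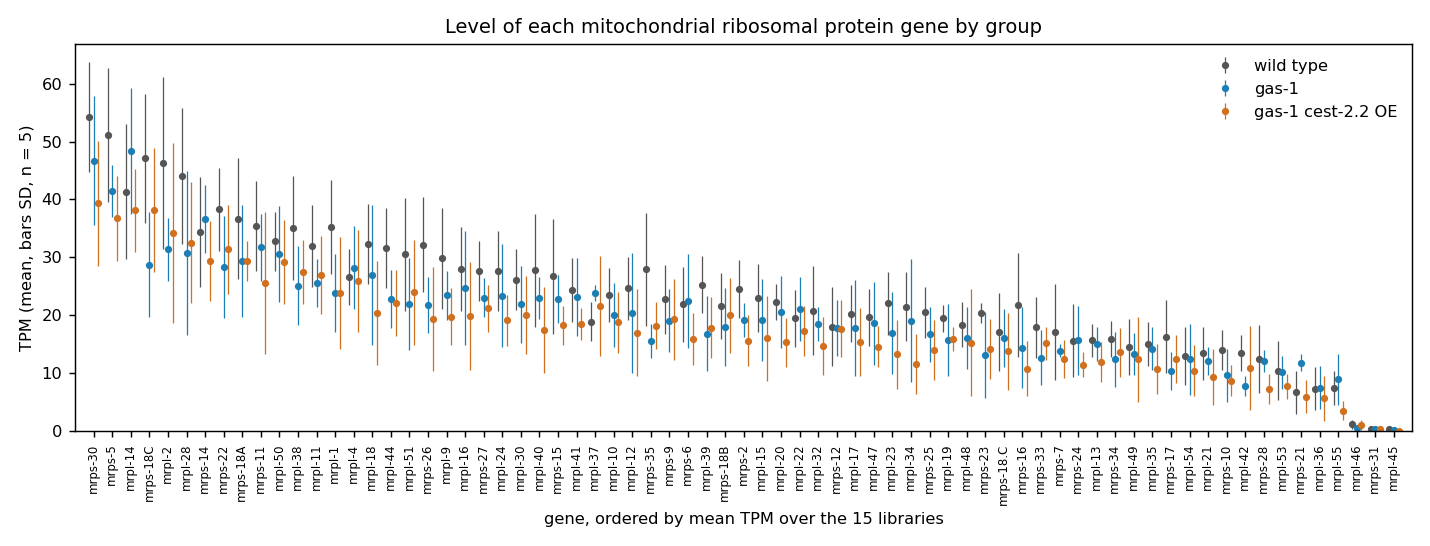
Level of each of the 71 mitochondrial ribosomal protein genes in TPM on a linear axis, as the mean of 5 libraries a group with bars of 1 SD, ordered by the mean over 15 libraries. From mrps-30 on the left, the tested genes fall gradually to mrpl-55, and mrpl-46, mrps-31 and mrpl-45 sit near 0.

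The members differed in how closely libraries of 1 group agreed. The coefficient of variation of CPM within a group, averaged over the 3 groups, was lowest for mrps-27 (10.1%), mrps-5 (12.2%) and mrps-30 (13.2%). It was highest for mrpl-36 (53.2%) and mrpl-55 (40.6%), which are also the genes with the fewest reads per length. Single libraries shifted many members together. Wild type replicate 5 had the highest CPM of its group in 41 of 68 genes, gas-1 replicate 4 in 34 and OE replicate 2 in 24. OE replicate 4 had the lowest of its group in 31 genes, gas-1 replicate 5 in 26 and wild type replicate 2 in 25. The mean log2 CPM of the germline markers was highest of its group in wild type replicate 5 (6.99) and OE replicate 2 (7.12). It was lowest of its group in gas-1 replicate 5 (5.999) and OE replicate 4 (6.30). It was no extreme of its group in gas-1 replicate 4 (6.41) or wild type replicate 2 (6.93). The same mean of the intestine markers was lowest of its group in gas-1 replicate 4 (8.34) and OE replicate 2 (7.48). In OE replicate 4 (8.75) the intestine mean was the highest of its group. Neither wild type replicate 2 (7.99) or 5 (7.60) nor gas-1 replicate 5 (8.89) was an extreme of the intestine mean. The part of these markers in the shifts was not tested.

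The genes were spread over all 5 autosomes and none lay on the X chromosome, which holds 13.7% of the protein-coding genes in the Ensembl release 115 annotation of build WBcel235, the build in the submitters' processing notes. Chromosome III held 22 of the 71 members and 13.2% of all coding genes, chromosome I held 15, II held 13, IV held 11 and V held 10. A same-strand gene within 500 bases, overlapping genes included, was annotated for 48 of 71 members (67.6%) and for 7114 of 19973 coding genes (35.6%). The spacing common in worm operons falls within that limit, but overlaps were counted as well. In 2 cases another member lay within 500 bases, on either strand. mrps-2 and mrpl-4 follow each other on the same strand of chromosome V with a gap of 105 bases, and mrpl-1 and mrps-24 lie 343 bases apart on opposite strands of chromosome IV. These are descriptions of the annotation, and no operon was tested.

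Summed over all 71 genes, the level of mitochondrial ribosomal protein transcripts was close to equal in the 3 groups on the TMM scale. The sum was 769, 730, 737, 709 and 875 CPM in libraries 1 to 5 of wild type. It was 697, 757, 694, 887 and 704 CPM in those of gas-1, and 776, 847, 746, 640 and 718 CPM in those of OE. The groups overlapped almost wholly, with means of 764 ± 65.6, 748 ± 82.0 and 745 ± 75.9 CPM. The large subunit summed to 403, 405 and 397 CPM, and the small subunit to 361, 343 and 348 CPM. The ratio of large to small subunit TPM was 1.35 ± 0.037, 1.41 ± 0.059 and 1.35 ± 0.052. As a share of all estimated counts, without TMM, the members took 0.0624 to 0.124%, 0.0516 to 0.0985% and 0.0388 to 0.106%. On that scale and in summed TPM (1678 ± 365, 1402 ± 248 and 1262 ± 321) the mutant groups were lower on average than wild type, with overlapping ranges. The median of all 10585 genes shifted in the same way, from -0.11 on the TMM scale to -0.36 with TPM in gas-1 against wild type, so the changes below are read relative to all genes.

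The respiratory chain and mitochondrially encoded transcripts stood beside them at unequal levels. Nuclear genes of complexes II to V (29 genes) summed to 4112 ± 471, 5803 ± 535 and 6340 ± 986 CPM. Nuclear genes of complex I without gas-1 (15 genes) summed to 893 ± 33.3, 1158 ± 92.8 and 1186 ± 147 CPM. The 14 mitochondrially encoded genes in the list, both rRNAs of the mitochondrial ribosome included, summed to 6850 ± 831, 13202 ± 4353 and 17244 ± 4982 CPM. In each of these 3 sums every library of gas-1 and of OE was above every library of wild type.

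**Figure D2:**
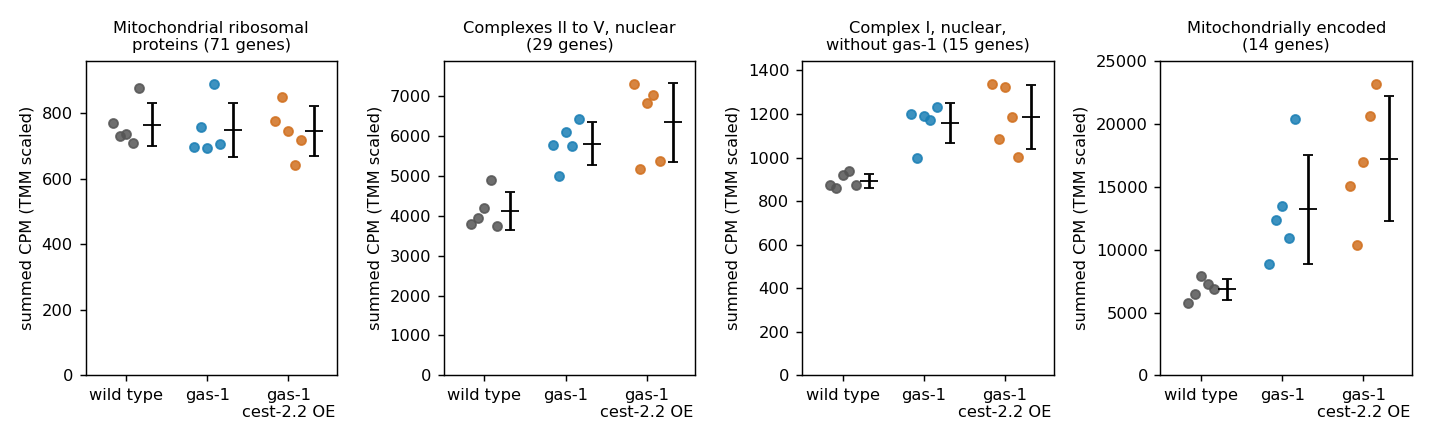
Summed CPM with TMM scaling in each library (points), with the mean and 1 SD of the 5 libraries of a group (bars). The panels show the mitochondrial ribosomal proteins, nuclear genes of complexes II to V, nuclear genes of complex I without gas-1, and mitochondrially encoded genes. The last panel includes both rRNAs of the mitochondrial ribosome, and all axes start at 0. The mitochondrial ribosomal protein sums lie between 640 and 887 CPM in all groups, while in the other panels the gas-1 and OE points lie above those of wild type.

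Comparison of gas-1 with wild type asked how the complex I mutation changed transcripts of the intestine. Of the 68 genes, none was higher and 1 was lower in gas-1, mrps-35. Among all 10585 genes tested, 21.4% were called in either direction, 12.8% higher and 8.63% lower. Before adjustment, 4 of 68 members had p under 0.05 in edgeR, or 5.88%, against 37.9% of all genes. DESeq2 called mrps-35 lower and also mrpl-37 higher, against 1774 genes higher and 1242 lower among all 10585. The median log2 change of the members was 0.01, against -0.11 for all genes, and the quartiles of the members were -0.15 and 0.15, against -0.54 and 0.60 over all genes. Single members ran from -0.59 (mrps-35) to 1.07 (mrps-21). The 95% interval of the change lay within 2-fold in both directions for 55 of the 68. The medians were 0.03 in the large and -0.02 in the small subunit. In 2 members the libraries of the groups did not overlap, mrpl-37 and mrps-18C, against 15.9% of all genes.

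mrps-35, a small subunit protein gene with no bacterial counterpart, lies on chromosome V from 18981306 to 18985865 on the forward strand. The wild type libraries 1 to 5 held 11.9, 16.6, 14.3, 13.4 and 21.0 CPM, those of gas-1 8.98, 11.5, 7.43, 11.6 and 12.01 CPM, and those of OE 11.96, 13.9, 14.04, 15.01 and 16.5 CPM. Of the gas-1 libraries, 4 were below every wild type library and replicate 5 was within 0.1 CPM of the lowest of them. The change in gas-1 against wild type was a log2 of -0.59 ± 0.20 (SE; 95% interval -1.01 to -0.16; adjusted p = 0.0463, edgeR quasi-likelihood test). The call was lost when any of 14 of the 15 libraries was left out, wild type replicate 4 being the exception, with log2 changes of -0.63 to -0.38 and adjusted p from 0.0448 to 0.233. The gene shares 151 exonic bases with sws-1 on the other strand, and reads of both genes cannot be separated there. sws-1 stood at 13.9 ± 3.08, 8.70 ± 2.19 and 9.90 ± 3.11 CPM (log2 -0.67 in gas-1 against wild type, adjusted p = 0.0712), and its part in the mrps-35 value was not tested. Both annotated transcripts of mrps-35 were lower on average in gas-1, the first at 5.98 ± 1.88 CPM there against 9.22 ± 1.53 in wild type, the second at 4.30 ± 1.32 against 6.24 ± 2.16.

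mrpl-37, a large subunit protein gene on chromosome II (13568077 to 13575068, reverse strand), held 12.6, 16.4, 14.1, 13.985 and 14.3 CPM in the wild type libraries and 21.4, 19.3, 23.5, 20.1 and 23.3 CPM in those of gas-1. The groups did not overlap. Its log2 change was 0.59 ± 0.21 (interval 0.14 to 1.04), and it missed the threshold over all genes with an adjusted p of 0.0590 in edgeR. OE libraries stood at 14.1, 21.4, 30.5, 12.9 and 25.5 CPM, 2 of them within the wild type range and 3 at or above 21.4. The value was called higher in 6 of 25 alternative settings, with log2 changes of 0.34 to 0.71 and adjusted p from 0.0209 to 0.553 over the 25.

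mrps-18C (chromosome III, 4935578 to 4937221, forward strand) had the third smallest p and the opposite sign. The wild type libraries held 30.98, 30.96, 29.5, 34.03 and 41.4 CPM, those of gas-1 24.6, 26.4, 27.9, 28.1 and 12.5 CPM, and those of OE 30.6, 41.2, 32.04, 32.2 and 37.6 CPM. Each gas-1 library was below each library of the other groups. gas-1 replicate 5 was lowest by a wide margin. The log2 change was -0.48 ± 0.20 (adjusted p = 0.0898), and without that library it was -0.27 (adjusted p = 0.237). It was -0.31 (adjusted p = 0.350) without wild type replicate 5, and -0.12 (adjusted p = 0.923) with the level of the germline markers as a covariate, edgeR in each case. The ranges of that covariate did not overlap between gas-1 and wild type, so its fit cannot fully separate germline content from strain. Of the other genes with S18 in their names, mrps-18A had a log2 change of -0.05 ± 0.21 and mrps-18B 0.02 ± 0.29. That of mrps-18.C was 0.18 ± 0.40. Their intervals (-0.501 to 0.395, -0.585 to 0.629 and -0.671 to 1.034) all included -0.48, so no difference in direction from mrps-18C was shown.

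mrpl-14, whose bacterial counterpart lies at the interface of the subunits, held 14.9, 10.005, 12.2, 10.3 and 14.2 CPM in the wild type libraries. The gas-1 libraries held 13.2, 15.8, 19.96, 12.5 and 26.3 CPM, and those of OE 14.5, 15.5, 15.8, 14.4 and 13.2 CPM. The groups overlapped, and 2 gas-1 libraries stood above the rest. The log2 change in gas-1 was 0.51 ± 0.21 (adjusted p = 0.0930). It shares 94 exonic bases with brf-1 on the other strand of chromosome II, a gene that was lower in gas-1 (27.9 against 43.6 CPM; log2 -0.65 ± 0.19, adjusted p = 0.0239, edgeR).

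mrps-5, the member best known for its part in worm lifespan, was one of the steadiest. It lies on chromosome V from 12563487 to 12565801 on the forward strand. The wild type libraries held 40.8, 35.5, 38.6, 34.03 and 44.3 CPM, those of gas-1 33.4, 37.2, 34.7, 33.8 and 50.6 CPM, and those of OE 34.9, 38.95, 38.3, 35.3 and 32.95 CPM. All groups overlapped. The log2 changes were -0.03 ± 0.14 in gas-1 against wild type (interval -0.33 to 0.28; adjusted p = 0.905), -0.07 ± 0.14 in OE against gas-1 (adjusted p = 0.856) and -0.10 ± 0.14 in OE against wild type (adjusted p = 0.703), all by edgeR, so that a change of 2-fold lay outside the interval of the first. The sign of the first change turned in 11 of 25 alternative settings, with values up to 0.10.

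**Figure D3:**
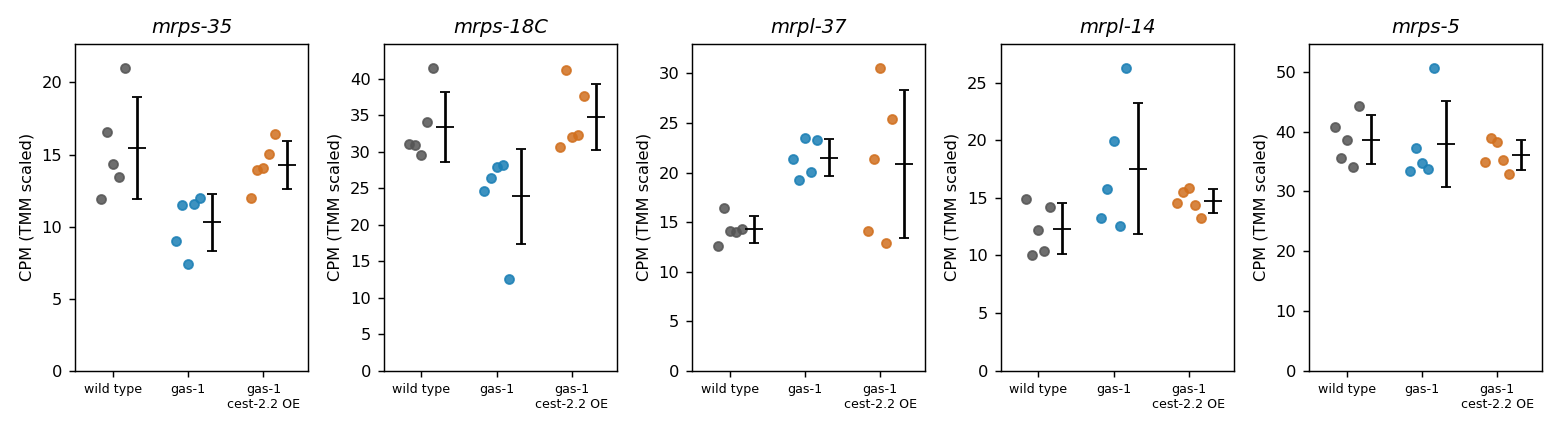
CPM with TMM scaling of mrps-35, mrps-18C, mrpl-37, mrpl-14 and mrps-5 in each library (points), with the mean and 1 SD of 5 libraries a group (bars), all axes from 0. The gas-1 points of mrps-18C lie below and those of mrpl-37 above all wild type points, and the groups of mrps-5 overlap.

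Comparison of OE with gas-1 asked what cest-2.2 overexpression changed within the mutant. It called none of the 68 members in edgeR, and DESeq2 called none. Of all genes, edgeR called 1.59%, 0.633% higher and 0.954% lower. DESeq2 called 216 genes higher and 298 lower among all 10585. At unadjusted p under 0.05 there were 3 members, or 4.41%, against 15.9% of all genes. The median log2 change was -0.10, against 0.03 for all genes, with -0.14 in the large and -0.06 in the small subunit. Single members ran from -1.24 (mrpl-55) to 0.54 (mrpl-42), and the 95% interval lay within 2-fold for 56 of the 68. The libraries of the groups did not overlap in 1 member, mrps-18C, against 3.76% of all genes.

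The members with the smallest p in OE against gas-1 were mrps-18C, mrps-35, mrpl-55 and mrps-28. For mrps-18C the log2 change was 0.54 ± 0.20 (adjusted p = 0.195), or 0.35 (adjusted p = 0.332) without gas-1 replicate 5. For mrps-35 it was 0.47 ± 0.20 (adjusted p = 0.262). These values rest on the same gas-1 libraries as those against wild type, so the opposite signs in the 2 comparisons are not separate evidence. The direct values against wild type were 0.06 ± 0.20 for mrps-18C and -0.11 ± 0.20 for mrps-35.

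mrpl-55, a large subunit protein gene on chromosome IV, held 1.35, 1.01, 1.83, 1.40 and 2.34 CPM in the wild type libraries. The gas-1 libraries held 2.33, 1.74, 0.801, 3.62 and 2.90 CPM, and those of OE 0.776, 1.10, 1.32, 0.339 and 1.25 CPM. Of the gas-1 libraries, 4 were above all OE libraries and replicate 3 lay among them. The log2 change in OE against gas-1 was -1.24 ± 0.53 (adjusted p = 0.267), the largest in size of the 68 and one of the least precise. mrps-28 averaged 5.22 ± 1.07 CPM in gas-1 and 3.32 ± 0.897 in OE (log2 -0.65 ± 0.34, adjusted p = 0.367, edgeR). Neither value passed the test.

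Comparison of OE with wild type asked how far the overexpressing mutant stood from the wild type. None of the 68 members was called by edgeR, against 9.33% of all genes, 7.09% higher and 2.24% lower. DESeq2 also called none of them, against 1050 genes higher and 485 lower among all 10585. At unadjusted p under 0.05 there was 1 member, or 1.47%, against 25.8% of all genes. The median log2 change was -0.06, against -0.04 for all genes, and -0.06 in each subunit. Values ran from -0.72 (mrpl-55) to 0.55 (mrpl-37), and the 95% interval lay within 2-fold for 57 of the 68. In no member were the libraries of the groups apart, against 6.41% of all genes.

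The members with the smallest p in OE against wild type were mrpl-37, mrps-26, mrps-16 and mrpl-34. mrpl-37 had a log2 change of 0.55 ± 0.21 (adjusted p = 0.119). mrps-26 averaged 17.8 ± 2.96, 14.3 ± 2.29 and 13.5 ± 4.58 CPM (log2 -0.39 ± 0.23, adjusted p = 0.290, edgeR). mrps-16 averaged 6.97 ± 2.26, 5.48 ± 2.37 and 4.48 ± 1.83 CPM (log2 -0.64 ± 0.37, adjusted p = 0.293), and mrpl-34 averaged 6.91 ± 1.45, 7.13 ± 3.59 and 4.70 ± 1.54 CPM (log2 -0.55 ± 0.35, adjusted p = 0.346). None passed the test, and in each the groups overlapped. Leaving out 1 library at a time gave log2 changes of -0.53 to -0.23 for mrps-26, -0.86 to -0.40 for mrps-16 and -0.66 to -0.36 for mrpl-34. The values nearest 0 came without wild type replicate 5 for mrps-26 and mrps-16, and without OE replicate 4 for mrpl-34. mrps-16 shares 169 exonic bases with ilcr-2 on its own strand and mrpl-34 shares 75 with aha-1 on the other, so part of their reads could come from those genes.

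**Figure D4:**
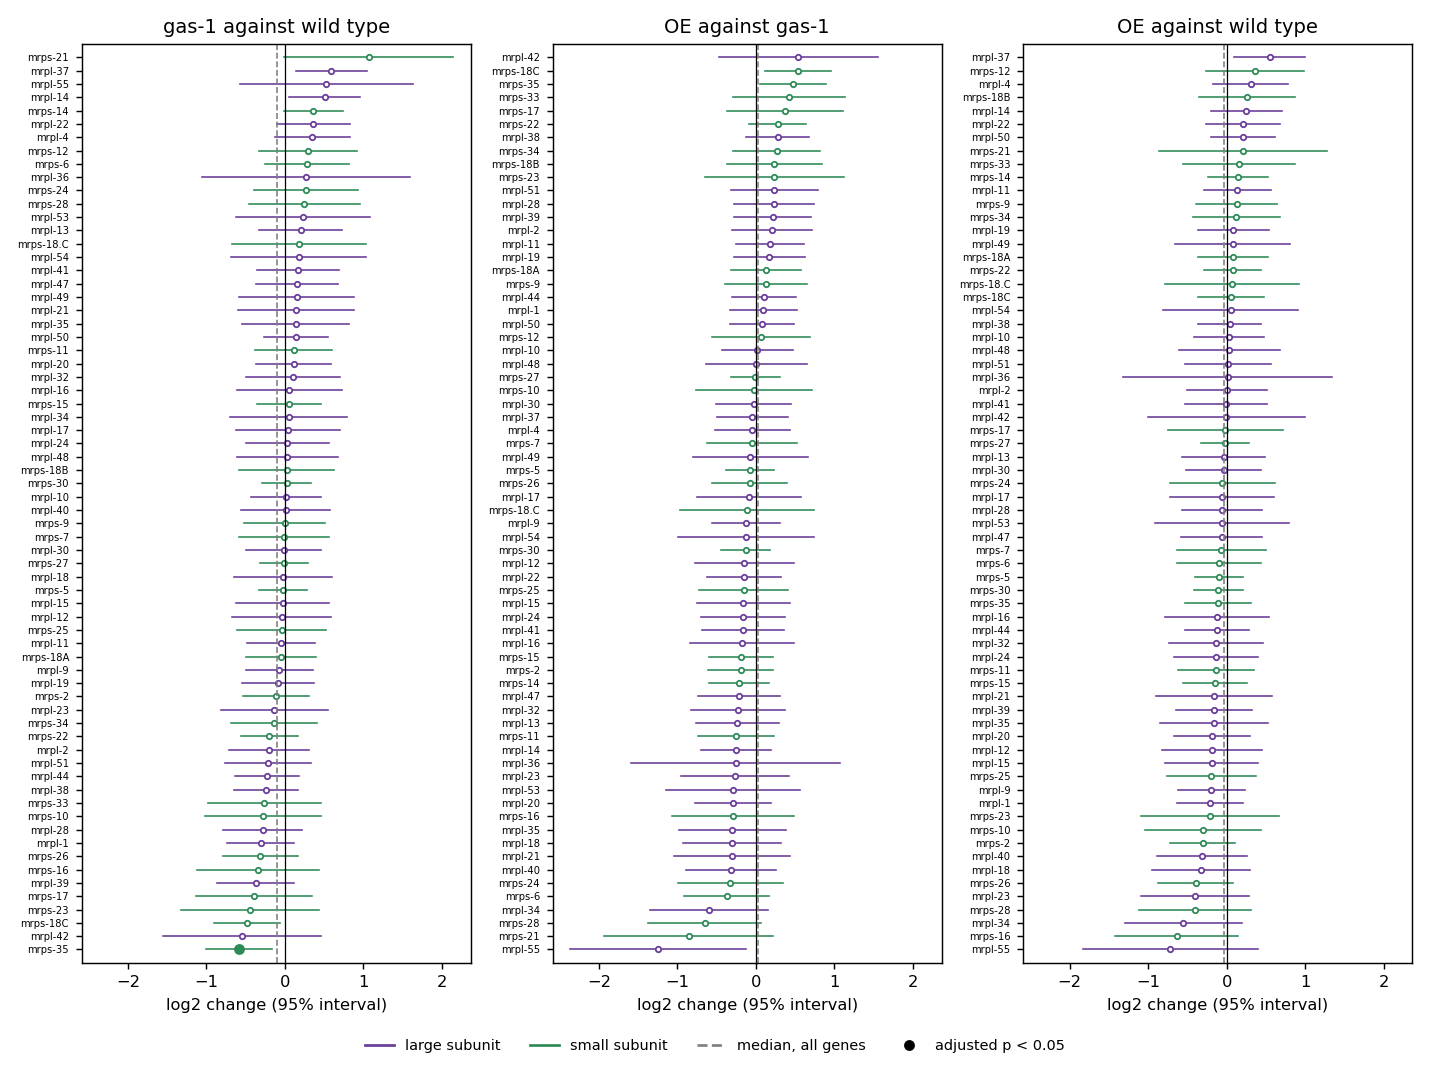
Log2 change (points) with 95% interval (lines) of each of the 68 tested members in the 3 comparisons, sorted by value, with the large subunit in purple and the small in green. A filled point marks an adjusted p under 0.05, the dashed line is the median of all genes, and mrps-35 in gas-1 against wild type is the single filled point.

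A log2 change under 0.5 in size was measured for 62 of the 68 members in gas-1 against wild type, for 62 in OE against gas-1 and for 64 in OE against wild type. Of all 10585 genes, 4764, 6924 and 5905 were under that size in these comparisons. The members under it included mrps-12, whose bacterial counterpart helps to read the codon, with 0.29 ± 0.30, 0.07 ± 0.29 and 0.36 ± 0.29 in those comparisons (log2 ± SE). They also included mrpl-12, whose bacterial counterpart forms the stalk that binds translation factors, with -0.04 ± 0.30, -0.15 ± 0.30 and -0.19 ± 0.30. mrps-30, the member with the highest level, had log2 changes of 0.02 ± 0.15, -0.13 ± 0.15 and -0.11 ± 0.15 in gas-1 against wild type, OE against gas-1 and OE against wild type. mrps-27, with the lowest coefficient of variation, had -0.01 ± 0.15, 0.00 ± 0.15 and -0.02 ± 0.15. The highest value in gas-1 against wild type, that of mrps-21, did not pass the test, at 2.04 to 3.20 CPM against 0.467 to 2.25 (log2 1.07 ± 0.51, adjusted p = 0.135, edgeR).

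Other parts of mitochondrial translation were measured from lists of their genes. The small subunit protein dap-3, which lacks the mrps- name, averaged 22.8 ± 2.55, 20.4 ± 2.27 and 22.9 ± 3.41 CPM and was not called in any comparison (adjusted p of 0.481, 0.652 and 0.975, edgeR). Of 11 matched translation and genome expression factors, 1 was called higher in gas-1 against wild type and 1 in OE against wild type. In both cases it was tsfm-1, and 0 were called in OE against gas-1. The shares of all genes called higher in the comparisons with wild type were 12.8% and 7.09%, so 1 of 11 lies near them. tsfm-1 encodes the elongation factor that reloads the mitochondrial elongation factor Tu. It rose, with 20.7 ± 3.38, 37.9 ± 3.34 and 35.1 ± 7.31 CPM and log2 changes against wild type of 0.87 ± 0.17 (adjusted p = 0.00240) and 0.76 ± 0.17 (adjusted p = 0.0104, edgeR). Elongation factor Tu itself, tufm-1, was at 86.8 ± 6.64, 109 ± 11.8 and 107 ± 12.8 CPM (adjusted p = 0.0722 in gas-1 against wild type). None of 9 mitochondrial aminoacyl-tRNA synthetase genes was called in any comparison, against 21.4%, 1.59% and 9.33% of all genes in either direction. Their median log2 changes were -0.08, 0.14 and 0.14.

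The RNAs of the mitochondrial ribosome were in the tables as well, and their level depends on how the library protocol primes RNAs with short or no poly(A) tails. The small subunit rRNA (MTCE.7) stood at 23.2 ± 2.52, 26.4 ± 2.64 and 29.9 ± 9.21 CPM, and was not called in any comparison. The large subunit rRNA (MTCE.33) stood at 45.8 ± 7.53, 77.6 ± 23.8 and 104 ± 50.6 CPM. It rose in OE against wild type (log2 1.19 ± 0.28, adjusted p = 0.0161, edgeR), and in gas-1 against wild type it missed the threshold (log2 0.76, adjusted p = 0.0618).

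In the same fit the respiratory chain and mitochondrially encoded lists held many calls against wild type where the ribosomal proteins held 1. In gas-1 against wild type, 20 of 28 tested nuclear genes of complexes II to V were higher and 0 lower (median log2 change 0.68), with cyc-2.1, a cytochrome c gene, at 181 CPM against 82.1 (log2 1.14 ± 0.17, adjusted p = 0.000334). Of 15 complex I genes 6 were higher and 1 lower (median 0.41), and of 14 mitochondrially encoded transcripts 8 were higher and 0 lower (median 0.84). In OE against gas-1, 0 genes of these 3 lists were called. In OE against wild type, 12 of 28, 3 of 15 and 11 of 14 were higher, with medians of 0.54, 0.38 and 1.14. The 14 include both rRNAs of the mitochondrial ribosome, and the large subunit rRNA is 1 of the 11. The mitochondrial unfolded protein response list (13 genes) held 5 higher and 1 lower, 0, and 3 higher in the 3 comparisons in that order, among them the protease gene clpp-1 at 17.8 CPM in gas-1 against 8.92 (adjusted p = 0.000982, edgeR). The cytosolic ribosomal proteins held 3 higher of 80 in gas-1 against wild type and 0 in both others, with medians of 0.33, -0.28 and 0.06. Among all genes, 12.8%, 0.633% and 7.09% were called higher in the 3 comparisons in that order. No test compared these lists with the mitochondrial ribosomal proteins.

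Many cell type markers were called in gas-1 against wild type, where 12.8% of all genes were called higher and 8.63% lower. In OE against wild type those shares were 7.09% and 2.24%, and the count of germline markers below lies near the latter. In gas-1 against wild type, 9 of 24 germline markers were lower (median log2 change -0.57), 9 of 18 oocyte and early embryo markers were lower (median -0.67), 4 of 12 muscle markers were lower (median -1.32) and 8 of 19 intestine markers were higher (median 0.69). In OE against wild type, 1 germline marker (median -0.20), 2 oocyte and early embryo markers (median -0.46) and 4 muscle markers (median -1.31) were lower. There 9 intestine markers were higher and 1 lower (median 0.65). In OE against gas-1 the 1 call in these lists was an intestine marker, mtl-2, which was lower. In that comparison 1.59% of all genes were called. No germline, oocyte, muscle or intestine marker was at 0 in all libraries of a group, and of 10 sperm markers spe-11 and ssp-9 were at 0 in all groups, with a summed sperm level of 0.0848 to 4.72 CPM. With the mean log2 CPM of the germline markers as a covariate, the members' median change in gas-1 against wild type was 0.25, and with that of the intestine markers 0.22, against 0.01 without. The medians of all genes were -0.01, -0.05 and -0.11 in those fits. Under both covariates edgeR called 0 members, while the calls over all 10585 genes fell to 112 higher and 64 lower with the germline covariate and 237 higher and 135 lower with the intestine covariate. The mean of the germline markers ran from 6.73 to 6.99 in wild type and from 5.999 to 6.70 in gas-1, without overlap. The germline fit thus cannot fully separate germline content from strain, and calls can be lost for that reason. The part of cell composition in the members' values was not tested.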

How the data were processed

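Per the submitters' processing notes, reads were handled with bcl2fastq 2.20 and kallisto 0.44.0 and build WBcel235; the annotation release used upstream was not given in the sources used here. Per the file headers, the deposited columns are transcript lengths, the authors' kallisto estimated counts (expected counts without scaling) and the TPM made from them, for 61451 transcripts in each of 15 libraries. The deposited map gives gene names. Its lines, counted from 0, were taken as the integer transcript numbers of the count files. Read so, 99.95% of 27886 non-coding transcripts had the length annotated in Ensembl release 115, against 51.81% with the map moved by 1 line. Gene identities rest on that reading. The authors' table of comparisons was not used, because over 12371 shared transcript names its means and those of the count files had a correlation of -0.053 on a log scale.

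Estimated counts were summed per gene and rounded, and all 15 libraries were fitted together in edgeR 4.0.16 (R 4.3.3) with TMM, filterByExpr at a minimum count of 10 and quasi-likelihood F tests with 12 residual degrees of freedom. Called genes had p under 0.05 after Benjamini-Hochberg adjustment over the 10585 genes of a comparison. Standard errors and 95% intervals come from that fit, whose common biological coefficient of variation was 0.527. The fit was also run on simulated counts, and the outcome is not given here. Alternatives used DESeq2 1.42.0 and limma 3.58.1, the latter also on log2(TPM + 0.5).

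The members, gene lists and tests were chosen with earlier results of these data known. Named with values were the called members, otherwise the 4 of smallest p in a comparison, the 3 highest and 2 lowest tested of each subunit by TPM, mrps-5, and members failing the filter. Of other lists, called genes of smallest adjusted p were named, with dap-3 and gas-1. The rRNAs, tufm-1, mrps-12, mrpl-12, mrps-21, mrps-27, the S18 genes and overlapping genes were added after their values were seen. Of 18 translation factor names 11 matched the map, and of 10 synthetases 9. Replicate numbers did not pair the libraries: of 5 same-numbered pairs 0, 1 and 1 had a correlation of residuals over 0.1 in the 3 comparisons.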

Additional observations from a re-analysis of the deposited data

Results flagged for a closer look

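Among 33 sets of 5 libraries examined for named members, 2 held a library far from the other 4 by Dixon's test at the 95% level, and chance flags about 1 in 20 such sets. Both came from gas-1 replicate 5. For mrps-18C that library stood at 12.5 CPM and the other 4 gas-1 libraries at 24.6 to 28.1. For mrps-5 it stood at 50.6 CPM and the other 4 at 33.4 to 37.2. The same library was thus lowest for one small subunit gene and highest for another.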

How the results depend on the processing

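A total of 25 alternatives were run. The call of mrps-35, the 1 member lower in gas-1 against wild type, was lost (0 lower) with RLE size factors, without the filter, with either covariate, without wild type replicates 1, 2 and 4 together (chosen for high muscle markers) and with only the 10 libraries compared. Over all 25 its log2 change was -0.78 to -0.38, with adjusted p of 0.0312 to 0.553. Leaving out each library gave 0 to 1 lower and 0 to 1 higher. The gene called higher was mrpl-37, also called (1 higher) with only the 10 libraries and with DESeq2. The cause was not tested. The members' median in gas-1 against wild type was 0.25 with the germline covariate, 0.22 with the intestine covariate and -0.26 with TPM, and in OE against wild type -0.44 with TPM, where the median of all genes was -0.40. Leaving out each library moved these medians from -0.06 to 0.13 and from -0.08 to 0.08. Without wild type replicates 1, 2 and 4 together, the members' median in gas-1 against wild type was -0.07 and that of all genes 0.03. This is the reverse of their order in the main fit. In that setting 475 genes were called higher and 81 lower among 11729, where the main fit called 1355 and 913 among 10585. In OE against gas-1 and OE against wild type, 0 members were called in all 25, and the median of the former ran from -0.23 to -0.02. Few genes of any kind were called in OE against gas-1. The main fit called 67 higher and 101 lower among 10585, and DESeq2 called 216 and 298. Without gas-1 replicate 1 the counts were 30 and 55 among 10930. The lack of called members in that comparison therefore does not set them apart from all genes. With the replicate block, 1 member was lower in gas-1 against wild type (mrps-35, adjusted p = 0.0425) and 0 were called elsewhere. The sign of mrps-5 in gas-1 against wild type turned with RLE (0.00), the intestine covariate (0.06) and leaving out libraries (-0.11 to 0.10); in OE against gas-1 it turned without gas-1 replicate 5 (range -0.12 to 0.02) and in OE against wild type without wild type replicate 5 (range -0.14 to 0.02). Changes in genes of a few CPM, such as mrpl-55 and mrpl-36, and in the 3 untested genes are limited by depth.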

Other observations

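Of the 71 genes, 16 had more than 1 transcript in the map. In mrpl-39, the transcript Y46H3A.7b, which carries no coding sequence in Ensembl release 115, took 79.2, 98.3 and 92.7% of the gene's estimated counts (wild type, gas-1 and OE, the order of all values here), so most of the gene's measured level was not that of an annotated coding transcript. The transcripts of mrpl-47 took 50.0% each in every library, a split that gives no information on either. In mrps-30 the second transcript took 7.996, 12.9 and 32.3%, with a range of 0.00101 to 99.6% across the OE libraries. In mrpl-14 the second transcript averaged 8.76 ± 1.79, 14.6 ± 4.91 and 11.9 ± 1.01 CPM (SD, n = 5), while the first averaged 3.58 ± 1.01, 2.91 ± 1.24 and 2.77 ± 1.16.

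Exons of 7 members overlapped another gene on the same strand by 9 to 419 bases, the longest being mrpl-42 within lpl-1, and exons of 14 overlapped a gene on the other strand by 9 to 151 bases. In libraries that keep no strand, reads in these stretches cannot be assigned to 1 gene by position alone.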
